A study of Mus musculus with 6 samples.

Results

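The receptors, Irf factors and Stat factor that carry interferon signals were followed in mouse embryonic stem cells in which Pcl2 (gene symbol Mtf2), a Polycomb-like partner of the histone methylating complex PRC2, was lowered by RNA interference. The 9 genes were Ifnar1 and Ifngr1 (receptor chains), Stat2 (a signal transducer), Irf1, Irf2, Irf3, Irf7 and Irf9 (interferon regulatory factors) and Nlrc5 (a transactivator of class I antigen presentation genes). They were taken by name, as candidate regulators of interferon and antigen presentation genes, and every probe set that names 1 of them alone was kept. This gave 14 probe sets of the 34945 that name 1 gene, and 9 of 18193 genes.

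RNA was measured on 6 Mouse Genome 430 2.0 arrays, 3 for each group. Both groups were R1 cells, an established line of undifferentiated mouse embryonic stem cells, grown in serum with leukaemia inhibitory factor (LIF) at 1000 U/mL. In the control group the cells stably expressed a mismatch hairpin sequence, and in the other group they stably expressed a short hairpin RNA (shRNA) against Pcl2. The labels name 3 biological replicates for each group and 1 shRNA clone, so that the effect of the hairpin and of the clone cannot be told apart. No interferon treatment is named in the labels.

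Interferons bind paired receptor chains, Ifnar1 with Ifnar2 for type I interferons and Ifngr1 with Ifngr2 for interferon gamma, and Janus kinases on those chains phosphorylate Stat proteins. Stat2 and Irf9 are parts of the complex that binds the interferon stimulated response element, while Stat dimers bind the gamma activated site and turn on Irf1, which in turn drives genes of antigen presentation together with Nlrc5. Irf3 and Irf7 are activated by sensors of foreign nucleic acid and start transcription of the interferon genes themselves, Irf2 competes with Irf1 for its sites, and embryonic stem cells are known for a weak interferon response.

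Promoter windows were found for 8 of the 9 genes in the RefSeq table of GRCm38.p6, 10 windows in all, each running from 250 bases before a start site to 50 after it. Both strands were searched for the core of the interferon stimulated response element, GAAA and again GAAA with any 2 bases between, and for TTCNNNGAA, the gamma activated site. The first was in 2 of the 10 windows, those of Irf2 and Stat2, and in 3.44% of all 32851 windows of the table. The second was in 3 of the 10, those of Irf1, Irf2 and Ifnar1, and in 8.30% of all windows. The windows of Irf1, the member that passed the test below, and of Irf2 and Stat2, the members with the first motif, are shown 5′ to 3′ on the plus strand, chr11:53769764-53770063, chr8:46739495-46739794 and chr10:128270248-128270547, with the matches in capitals.
Irf1: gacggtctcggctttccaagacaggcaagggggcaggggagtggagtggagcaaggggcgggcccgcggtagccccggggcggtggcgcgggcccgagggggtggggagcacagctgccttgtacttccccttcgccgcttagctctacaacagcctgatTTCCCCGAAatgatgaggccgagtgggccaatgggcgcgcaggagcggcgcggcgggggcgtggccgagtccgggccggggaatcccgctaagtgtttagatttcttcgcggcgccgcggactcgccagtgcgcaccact
Irf2: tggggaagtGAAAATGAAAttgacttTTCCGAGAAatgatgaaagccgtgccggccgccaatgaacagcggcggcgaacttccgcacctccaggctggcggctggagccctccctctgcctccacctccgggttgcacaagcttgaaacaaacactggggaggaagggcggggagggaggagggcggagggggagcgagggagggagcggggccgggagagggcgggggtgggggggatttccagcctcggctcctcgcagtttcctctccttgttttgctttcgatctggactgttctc
Stat2: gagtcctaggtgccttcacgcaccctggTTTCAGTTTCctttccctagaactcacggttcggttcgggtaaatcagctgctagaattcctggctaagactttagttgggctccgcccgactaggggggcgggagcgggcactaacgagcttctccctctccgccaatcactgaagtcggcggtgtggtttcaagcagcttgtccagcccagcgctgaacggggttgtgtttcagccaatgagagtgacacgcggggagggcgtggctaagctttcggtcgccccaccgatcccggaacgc
The match in Irf1, TTCCCCGAA, began 90 bases before the start site. In Irf2 both motifs matched, GAAAATGAAA from position -241 and TTCCGAGAA from position -224, and the matches did not overlap. The match in Stat2 was on the minus strand and began at position -222. The Ifnar1 window, chr16:91484965-91485264, held TTCACGGAA at position -5, and Irf1 had another window, chr11:53770223-53770522, with neither motif. These are matches of letters and not measured binding.

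Of the 7 member genes bright enough to be tested, 1 passed the threshold of an adjusted p below 0.05 (limma, Benjamini-Hochberg over all 13095 genes tested), and it was Irf1, which was lower in the Pcl2 shRNA cells. Of all genes tested 12.6% passed in either direction and 8.16% as lower, so that 1 of 7, or 14.3%, was near the share among all genes. In 3 of the 7, Irf1, Irf3 and Ifngr1, the 3 shRNA arrays all read lower than the 3 controls, beside 16.7% of all genes. The differences of 6 of the 7 were below 0, with a median of -0.24 on the log2 scale beside 0.024 over all genes tested. Irf2 and Nlrc5 were too dim to be tested and are given by their signals. In bulk RNA, fewer cells that express a gene and less RNA in each cell cannot be told apart.

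**Figure D1:**
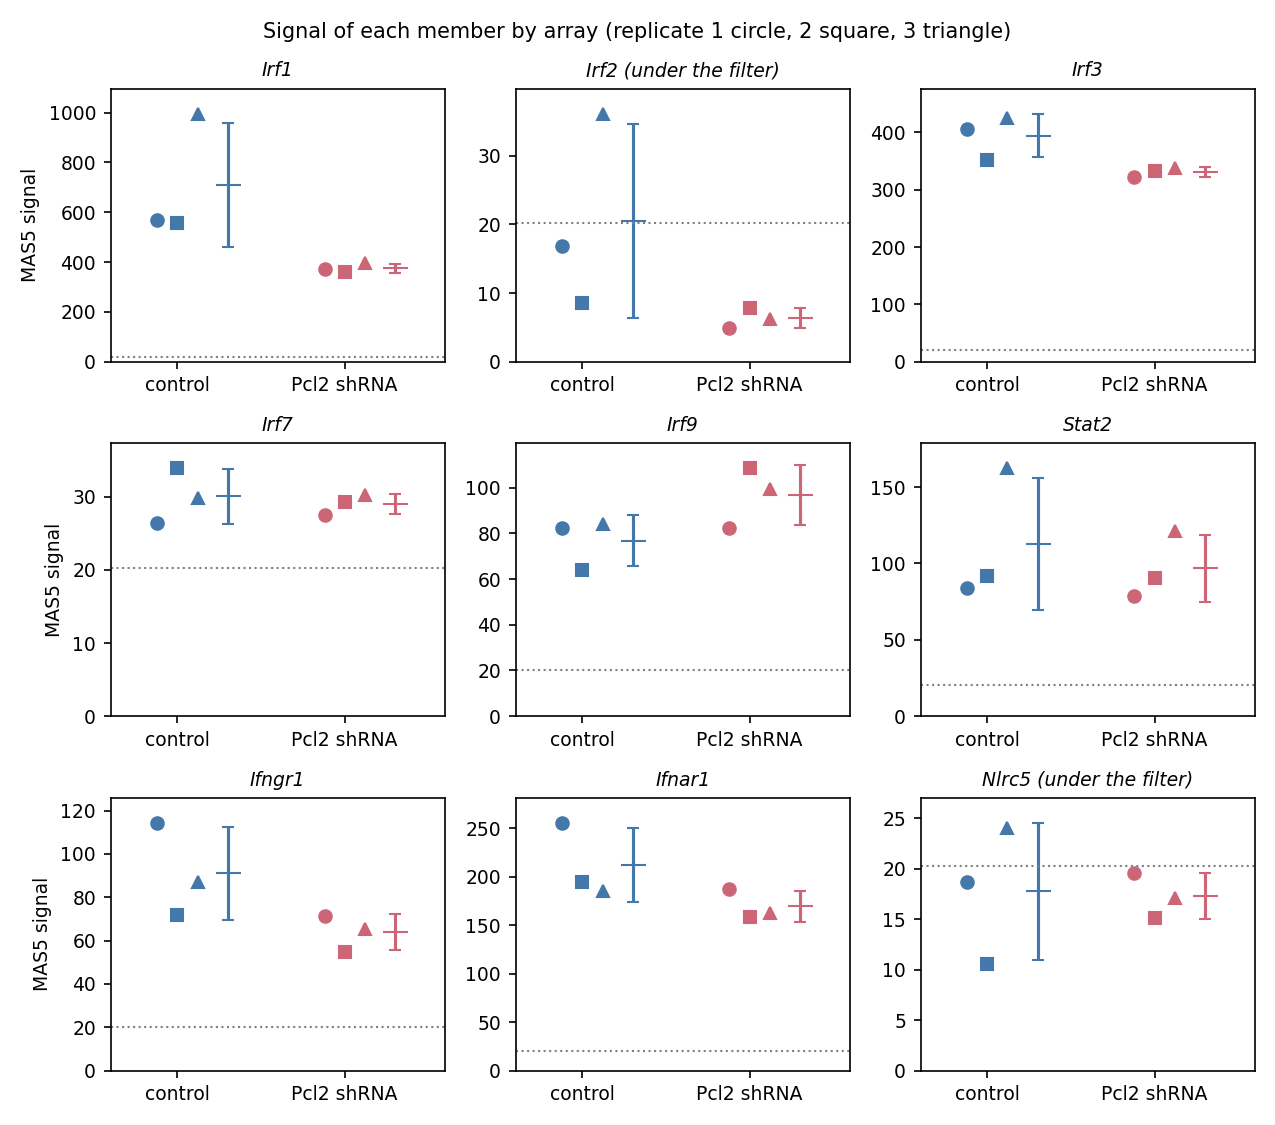
MAS5 signal (linear scale, y axis) of the 9 genes on each of the 6 arrays, controls in blue and Pcl2 shRNA in red, with the mean and SD (n = 3) to the right of each group and the background signal of 20.3 as a dotted line. Irf1 lay between 359 and 395 on the shRNA arrays and between 559 and 995 on the controls, while Irf2 and Nlrc5 were near the background.

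Irf1, the factor induced by interferon gamma, had signals of 569, 559 and 995 on control arrays 1, 2 and 3 and of 373, 359 and 395 on shRNA arrays 1, 2 and 3. Control replicate 3 stood above the other controls, the shRNA arrays were close together, and the groups did not overlap. The signal was 708 ± 249 (SD, n = 3) in the control and 376 ± 17.9 (SD, n = 3) in the shRNA cells. On the scale of log2(signal + 7) the difference was -0.85 (SE 0.22, 95% interval -1.34 to -0.36), which left 55.5% of the control level. The adjusted p was 0.0317 (limma). The exact two-sided permutation p was 0.1, the smallest that 3 against 3 arrays can give.

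The Irf1 difference was smaller without control replicate 3, and its call did not hold without any 1 of the shRNA arrays. Without control replicate 3 the difference was -0.58, with an adjusted p of 0.0494 (limma). Without shRNA replicate 1, 2 or 3 the differences were -0.84, -0.82 and -0.88, and the adjusted p was 0.0835, 0.111 and 0.0613 (limma), each above the threshold of 0.05. The call was also lost when dim probe sets were not filtered out (adjusted p = 0.0509, limma) and in limma without the intensity trend (adjusted p = 0.0569). With each kept probe set as its own feature, 10.4% of 23186 probe sets passed and Irf1 did too (adjusted p = 0.0401, limma).

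The 3 tested genes whose values over the 6 arrays were most like those of Irf1 were Igf1r, Celf2 and Hmg20b. Likeness was the root mean square of the differences in log2 value, each gene set relative to its control mean, and was 0.056 for Igf1r, 0.088 for Celf2 and 0.091 for Hmg20b, against 0.73 for the median gene. Igf1r, a growth factor receptor, had signals of 260, 232 and 454 in the controls and 168, 150 and 179 in the shRNA arrays. In Igf1r, as in Irf1, control replicate 3 was the highest array. Celf2, an RNA binding protein, went from 154 ± 40.4 to 77.4 ± 6.81 (SD, n = 3). Hmg20b, a chromatin protein, went from 199 ± 57.4 to 109 ± 4.66 (SD, n = 3). Resemblance was the rule by which these genes were picked, and it has no test.

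Irf2, the competitor of Irf1, had a single probe set with signals of 16.8, 8.60 and 36.1 in the controls and 4.95, 7.83 and 6.24 in the shRNA arrays. Control replicate 3 was the only array above the background of 20.3, the highest reading on any array among 27 probe sets for bacterial genes whose RNA was not added, so no fold change is given for Irf2. The planned ratio of Irf1 to Irf2 rests on Irf2 signals below background, so nothing is read from it.

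Irf3, which responds to sensors of viral nucleic acid, had signals of 405, 352 and 426 in the controls and 322, 332 and 339 in the shRNA arrays. All shRNA arrays were below all controls, by a small margin at control replicate 2. The log2 difference was -0.24 (SE 0.15, 95% interval -0.59 to 0.10) and did not pass the test (adjusted p = 0.367, limma). Its brightest probe set is one that can cross-hybridise. The 3 other probe sets of Irf3 gave log2 differences of -0.16, 0.28 and 0.0046, and the last was under the filter.

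Irf7, the factor that amplifies type I interferon transcription, was dim. Its signals were 26.4, 33.9 and 29.9 in the controls and 27.5, 29.3 and 30.2 in the shRNA arrays, so the shRNA values lay inside the control range. The log2 difference was -0.037 (95% interval -0.54 to 0.47, adjusted p = 0.942, limma). Without control replicate 2 it was 0.037.

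Irf9, the DNA-binding partner of Stat2, had signals of 82.4, 64.1 and 83.9 in the controls and 82.4, 109 and 99.3 in the shRNA arrays. It was the 1 member whose difference was above 0, at 0.31 (SE 0.21, 95% interval -0.15 to 0.77). The groups overlapped at shRNA replicate 1, and the adjusted p was 0.3995 (limma). The ratio of Irf1 to Irf9 was lower on every shRNA array than on every control array, with log2 ratios of 2.69, 2.99 and 3.46 in the controls and 2.09, 1.67 and 1.92 in the shRNA arrays. The difference of the mean ratios was -1.16 in log2. The exact permutation p was 0.1, the smallest that the 20 relabellings of the arrays can give, and 0.3 after adjustment over the 6 planned pairs, so that an unequal change of Irf1 and Irf9 was not shown.

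Among the other Irf genes none passed the test. Irf4 and Irf8, known from blood cells, had log2 differences of 0.10 (95% interval -0.54 to 0.74) and 0.21 (95% interval -0.27 to 0.69). Irf5, which acts below Toll-like receptors, had signals of 222, 204 and 191 in the controls and 283, 241 and 246 in the shRNA arrays, all above the controls. Its log2 difference was 0.31 (95% interval -0.060 to 0.68, adjusted p = 0.280, limma), while its other kept probe set gave -0.17. Over the 7 Irf genes tested, 0 rose and 1, Irf1, fell, beside 4.46% and 8.16% of all genes. Their median log2 difference was 0.10 (0.0059 with signals below background set to it) beside 0.024 over all genes.

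Stat2, the Stat factor of type I interferon signalling, had signals of 83.7, 92.0 and 162 in the controls and 79.0, 90.6 and 121 in the shRNA arrays. Replicate 3 was the highest array in both groups and the groups overlapped. The log2 difference was -0.17 (SE 0.27, 95% interval -0.77 to 0.44, adjusted p = 0.763, limma), and without control replicate 3 it was 0.11. A dimmer probe set of Stat2 read 32.5, 37.4 and 102 in the controls and 28.8, 44.8 and 44.6 in the shRNA arrays, again with control replicate 3 apart, and gave -0.33. The log2 ratio of Irf9 to Stat2 was -0.020, -0.48 and -0.90 in the controls and 0.056, 0.24 and -0.27 in the shRNA arrays. It was higher in the shRNA array of each number than in the control of that number, but the groups overlapped, with a difference of 0.47 (exact permutation p = 0.2 over free relabellings).

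Of the 6 Stat genes tested, 1 rose and 0 fell, beside 4.46% and 8.16% of all genes. The gene that rose was Stat6, the factor of interleukin 4 signalling, with signals of 236, 215 and 269 in the controls and 432, 440 and 448 in the shRNA arrays. The groups were far apart, with a log2 difference of 0.86 (SE 0.16, adjusted p = 0.00595, limma), and the call held without any single array. Stat3, the factor through which LIF acts, had a log2 difference of 0.24 (95% interval -0.14 to 0.62, adjusted p = 0.433, limma). The other kept probe sets of Stat3 gave 0.30 and 0.62. Stat5a, a factor of cytokine signalling, differed by 0.24 (95% interval -0.33 to 0.82), and its other kept probe set gave 0.68.

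Stat4 and Stat5b did not pass, but did with the replicate number as a block. Stat4, the factor of interleukin 12 signalling, read 18.9, 57.9 and 21.2 in the controls and 54.7, 65.5 and 57.4 in the shRNA arrays, a log2 difference of 0.87 (adjusted p = 0.130, and 0.0415 with the block, limma). Control replicate 2 lay among the shRNA arrays, and without it the adjusted p was 0.0103 (limma). This was the 1 array whose omission gave a call, and over the 6 omissions the difference was 0.63 to 1.29 and the adjusted p up to 0.326. Stat5b read 69.2, 70.3 and 115 in the controls and 41.6, 52.5 and 63.6 in the shRNA arrays, a log2 difference of -0.61 (adjusted p = 0.164, and 0.0439 with the block, limma), and the groups did not overlap. Its other kept probe set gave -0.17.

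Ifngr1, the ligand-binding chain of the interferon gamma receptor, had signals of 114, 71.9 and 87.0 in the controls and 71.1, 54.9 and 65.5 in the shRNA arrays. Every shRNA array was below every control, though shRNA replicate 1 and control replicate 2 were close. The log2 difference was -0.45 (SE 0.23, 95% interval -0.96 to 0.051) and did not pass the test (adjusted p = 0.242, limma). Its partner Ifngr2 had a log2 difference of -0.14 (95% interval -0.75 to 0.47). The ratio of Ifngr1 to Ifngr2 was lower on all shRNA arrays than on all controls, by 0.31 in log2 (exact permutation p = 0.1, and 0.3 adjusted over the 6 pairs).

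Ifnar1, a chain of the type I interferon receptor, had signals of 256, 194 and 185 in the controls and 188, 159 and 162 in the shRNA arrays. Control replicate 1 was the highest array, and the groups overlapped because shRNA replicate 1 exceeded control replicate 3, although each shRNA array read lower than the control of the same number. The log2 difference was -0.30 (SE 0.19, 95% interval -0.72 to 0.12, adjusted p = 0.363, limma). Another probe set of Ifnar1 was under the filter and above background on 1 array. Its partner Ifnar2 read 82.4, 72.7 and 104 in the controls and 76.4, 96.6 and 87.4 in the shRNA arrays, a log2 difference of 0.016 (95% interval -0.45 to 0.48). The difference of Ifnar1 was below that of Ifnar2 by 0.31 in log2, with overlapping ratios (exact permutation p = 0.3).

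None of the 9 receptor chains and Janus kinases tested passed the threshold, and their median log2 difference was -0.25. Jak1, which serves both receptors, had signals of 548 ± 173 and 446 ± 36.2, and Tyk2, which binds Ifnar1, had 185 ± 12.3 and 208 ± 26.7 (SD, n = 3). Jak2, the kinase bound to Ifngr2, read 186, 99.9 and 167 in the controls and 95.5, 72.1 and 99.0 in the shRNA arrays, a log2 difference of -0.69. Its adjusted p was 0.109, 0.0150 with the replicate block and 0.0258 without control replicate 2 (limma). With any other array left out it was above 0.05, up to 0.334, and the difference was as small as -0.52.

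**Figure D2:**
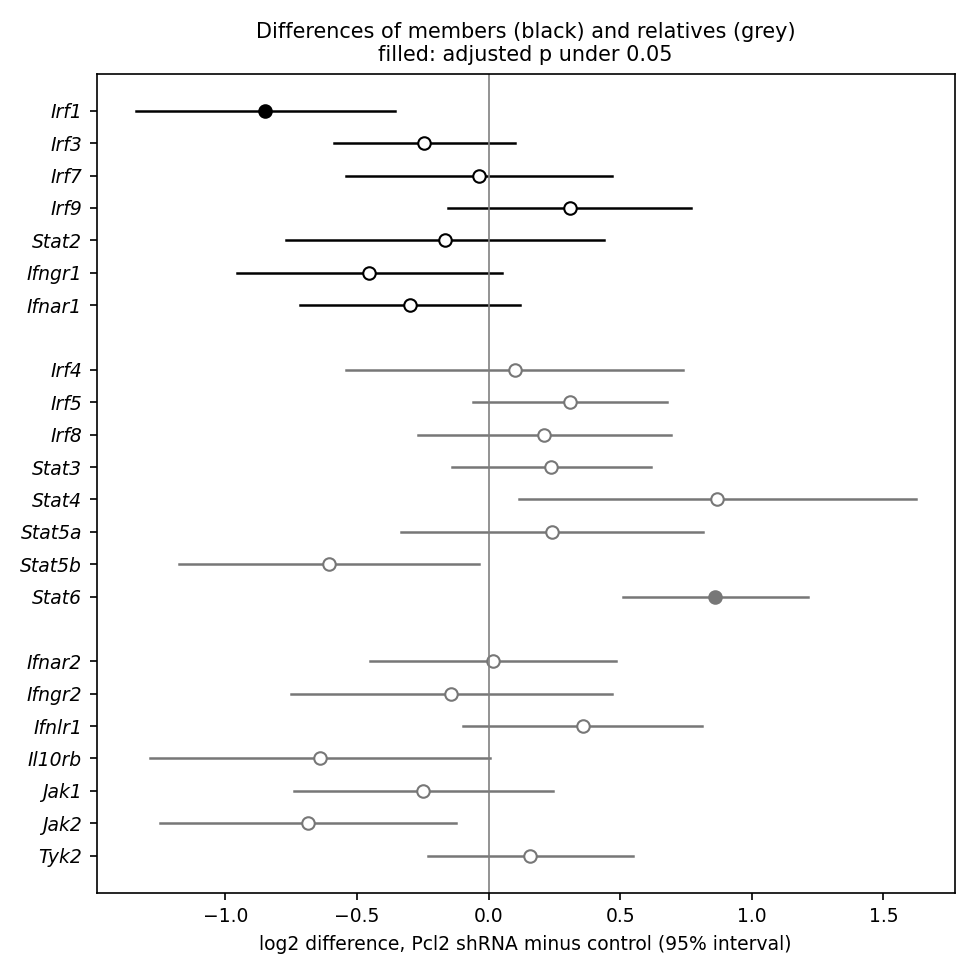
Log2 difference (x axis, Pcl2 shRNA minus control) with its 95% interval for the 7 tested members in black and for other Irf, Stat, receptor and Janus kinase genes in grey. Filled points passed the adjusted p of 0.05, which were Irf1 at -0.85 and Stat6 at 0.86, and the intervals of the other 6 members cross 0.

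Nlrc5, the class I transactivator, had a single probe set with signals of 18.7, 10.5 and 24.0 in the controls and 19.6, 15.1 and 17.1 in the shRNA arrays. Control replicate 3 was the only array above background, and the groups overlapped, so a difference in Nlrc5 was not measurable with this probe set. Of the 8 other factors that act on MHC promoters, 0 passed the test, and the median log2 difference was -0.072. Nfyb and Nfyc, subunits of the CCAAT-binding factor NF-Y, differed by 0.29 (95% interval -0.26 to 0.83) and -0.081 (95% interval -0.58 to 0.42). Ciita, the class II transactivator, read 25.2 ± 6.46 and 28.6 ± 5.75 (SD, n = 3). Rfxap, a subunit of the RFX complex, read 150, 105 and 97.3 in the controls and 49.7, 75.5 and 73.6 in the shRNA arrays, with an adjusted p of 0.0676, and 0.0419 with the replicate block (limma).

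Of 21 inhibitors and partners of Irf and Stat factors, 2 rose and 2 fell, beside 4.46% and 8.16% of all genes, with a median log2 difference of 0.14. Ptpn11, a phosphatase that acts in cytokine signalling, fell from 709 ± 58.8 to 407 ± 25.6 (SD, n = 3; adjusted p = 0.00710, limma) on its brightest probe set. Its other 2 kept probe sets gave log2 differences of -0.086 and 0.0041, and with the mean of its probe sets Ptpn11 did not pass (log2 -0.29, adjusted p = 0.294, limma). Pias2, an inhibitor of Stat factors, rose from 764 ± 92.8 to 1250.1 ± 174 (SD, n = 3; adjusted p = 0.0190, limma). Nmi, which binds Stat proteins, read 55.3, 48.4 and 76.2 in the controls and 25.3, 28.8 and 30.6 in the shRNA arrays (adjusted p = 0.0325, limma). Prdm1, a repressor that binds many Irf sites, read 132, 118 and 113 in the controls and 155, 266 and 376 in the shRNA arrays (adjusted p = 0.0422, limma). The calls of Pias2, Nmi and Prdm1 were each lost without some single arrays, with adjusted p up to 0.0794, 0.110 and 0.135 (limma), while that of Ptpn11 held without any 1 array. With the replicate block 4 rose and 2 fell, beside 9.97% and 13.8% of all genes with the block, the added genes being Ptpn6 and Irf2bpl, and with each array centred on its median 0 rose.

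Upstream of Irf3 and Irf7, none of the 13 sensors, adaptors and kinases tested passed, and their median log2 difference was -0.022. A further 4 genes of the list were too dim to test and are not covered by this count and median. Of these, Ifih1 read 29.1 ± 10.1 and 3.23 ± 2.96, and Tlr3 read 23.2 ± 2.59 and 8.55 ± 7.27 (SD, n = 3). In both, every shRNA array was below every control and below background. Ikbke and Tlr7 were at or below background on every array. Tbk1, the kinase that phosphorylates Irf3, had signals of 434 ± 38.3 and 390 ± 16.8, and Ddx58, the RNA sensor RIG-I, had 313 ± 37.0 and 346 ± 106 (SD, n = 3), with its other 2 probe sets lower in the shRNA cells at -0.25 and -0.078. With the replicate block Cgas, the DNA sensor, passed as higher (log2 0.84, adjusted p = 0.0195, against 0.0512 without the block, limma). The adaptor Myd88 and the NF-kappaB subunit Rela passed with the block as lower (log2 -0.55 and -0.45). Of the interferon genes, Ifna1 and Ifnb1 were bright enough to test and neither passed. Ifna1 read 27.5, 37.8 and 39.8 in the controls and 32.5, 64.1 and 70.9 in the shRNA arrays, and Ifnb1 read 21.2, 29.9 and 22.0 and then 39.96, 31.9 and 30.2. Ifnb1 was thus dim on all arrays, and Ifna1 was highest on shRNA replicates 2 and 3. The probe set of Ifna1 is one that can cross-hybridise. Ifng was at or below background on every array.

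The genes these factors are known to act on were listed beside them, with the shares of all genes that rose (4.46%) and fell (8.16%) as the background. Of 15 class I antigen presentation genes, 10 fell and 0 rose, and the median log2 difference was -1.41. B2m, the light chain of class I molecules, went from 1183 ± 271 to 161 ± 34.1, and the peptide loading factor Tapbp went from 706 ± 137 to 158 ± 14.6 (SD, n = 3). Erap1, which trims peptides, went from 88.5 ± 15.5 to 22.6 ± 2.65 (SD, n = 3), with 2 of the 3 shRNA arrays above background. The immunoproteasome subunit Psmb8 was at least 11.7-fold lower, with all shRNA arrays below background, and passed the filter through its control signals.

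Of 11 genes induced by interferon gamma, 7 fell and 1 rose, with a median log2 difference of -1.87, or -1.57 with signals below background set to it. Of the 7, Gbp3, Irgm2 and Cxcl10 were below background on all shRNA arrays and passed the filter through their control signals, and 6 further genes of the list were too dim to test, so that the count and median depend in part on the filter. With a filter at the 60th percentile 4 fell. The guanylate-binding proteins Gbp2 and Gbp2b, of host defence, differed by -4.44 and -4.53, with Gbp2 above background on 1 of the 3 shRNA arrays, Gbp3 was at least 6.82-fold lower, and the immunity GTPase Irgm1 differed by -2.08. The gene that rose was Icam1, an adhesion molecule, with a log2 difference of 1.02 (adjusted p = 0.00689, limma). Of 23 genes induced by type I interferon, 3 fell and 1 rose, with a median of 0.023. Oasl2, of the oligoadenylate synthetase family, was at least 3.33-fold lower, Ifitm3, a membrane protein that blocks virus entry, differed by -0.98 and Parp9 by -1.37, and Trim25, a ubiquitin ligase of the RIG-I pathway, by 0.65. Oasl2 was below background on all shRNA arrays and passed the filter through its control signals. A further 5 genes of the list were too dim to test, so that this count also depends in part on the filter. Without shRNA replicate 2 Trim25 did not pass (adjusted p = 0.0531, limma). With the replicate block 5 of the 23 fell and 3 rose, beside 13.8% and 9.97% of all genes with the block.

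Of 10 targets of Stat3 in embryonic stem cells, 2 rose and 3 fell, with a median log2 difference of 0.27. The pluripotency factors Klf4 and Tfcp2l1 rose, by log2 1.78 and 1.24. The early response factors Junb and Fos differed by -0.99 and -1.44, and the kinase Pim1 by -0.66. Junb did not pass without shRNA replicate 1 (adjusted p = 0.0517, limma), and Pim1 did not without control replicate 2 or 3 or shRNA replicate 1 or 2 (adjusted p up to 0.133, limma). Fos read 783, 2579 and 1802 in the controls and 764, 586 and 401 in the shRNA arrays, and its call was lost when control replicate 2 or 3 or shRNA replicate 2 or 3 was left out (adjusted p up to 0.101, limma).

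**Figure D3:**
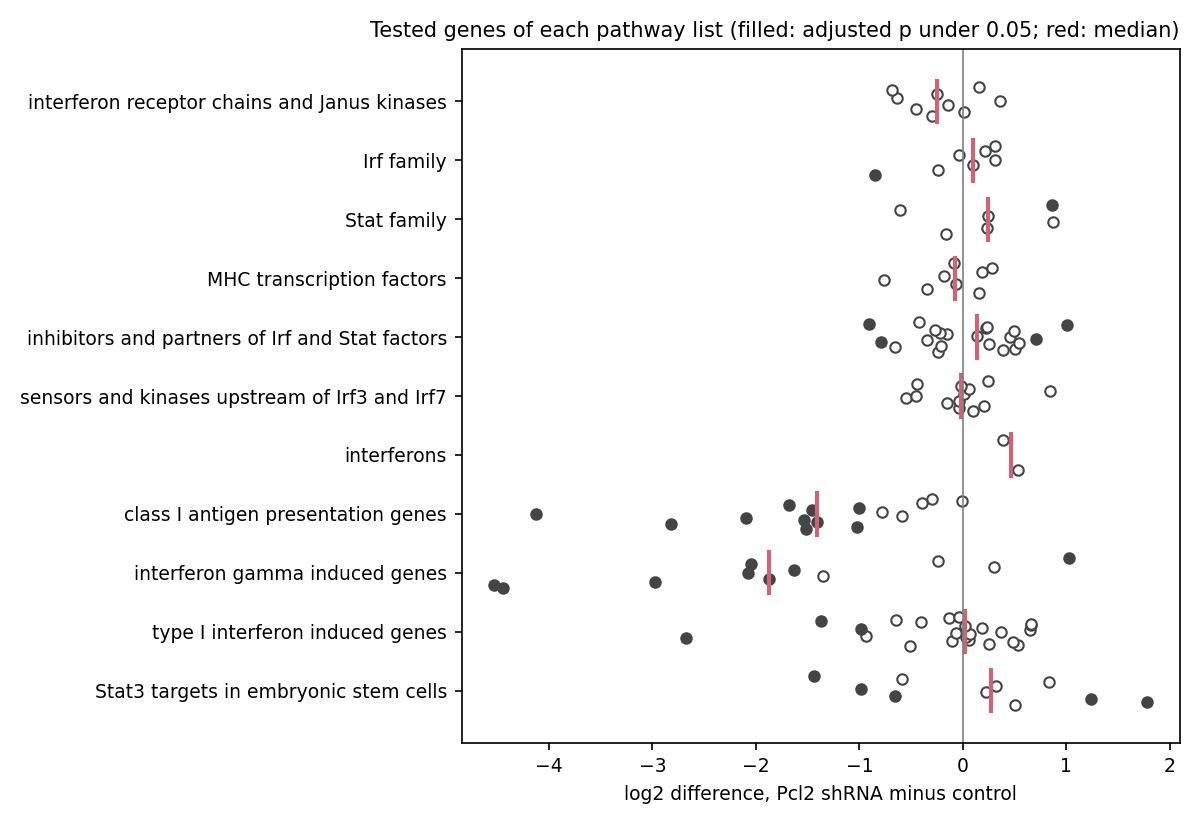
Log2 difference (x axis, Pcl2 shRNA minus control) of the tested genes in each of the 11 lists, 1 point for each gene, filled where the adjusted p was below 0.05, with the median of each list as a red bar. The medians of the class I and interferon gamma lists were -1.41 and -1.87, and those of the Irf and Stat lists were 0.10 and 0.24.

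Control replicate 3 was the highest control for Irf1, Irf3, Irf9 and Stat2, 4 of the 7 members tested, and for Irf2 and Nlrc5 among the dim members. It was also the highest control in 8 of the 11 interferon gamma genes, in 9 of the 15 class I genes and in 38.1% of all genes. Relative to each gene's control mean, the median of the interferon gamma genes was 0.43 on control replicate 3, -0.052 on replicate 1 and -0.45 on replicate 2, while that of all genes was between -0.035 and 0.034 on the controls. On the shRNA arrays the median of the interferon gamma genes was -1.85, -1.57 and -2.30, below each control. For the 7 members the medians were 0.043, -0.22 and 0.11 on the controls and -0.28, -0.24 and -0.21 on the shRNA arrays.

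**Figure D4:**
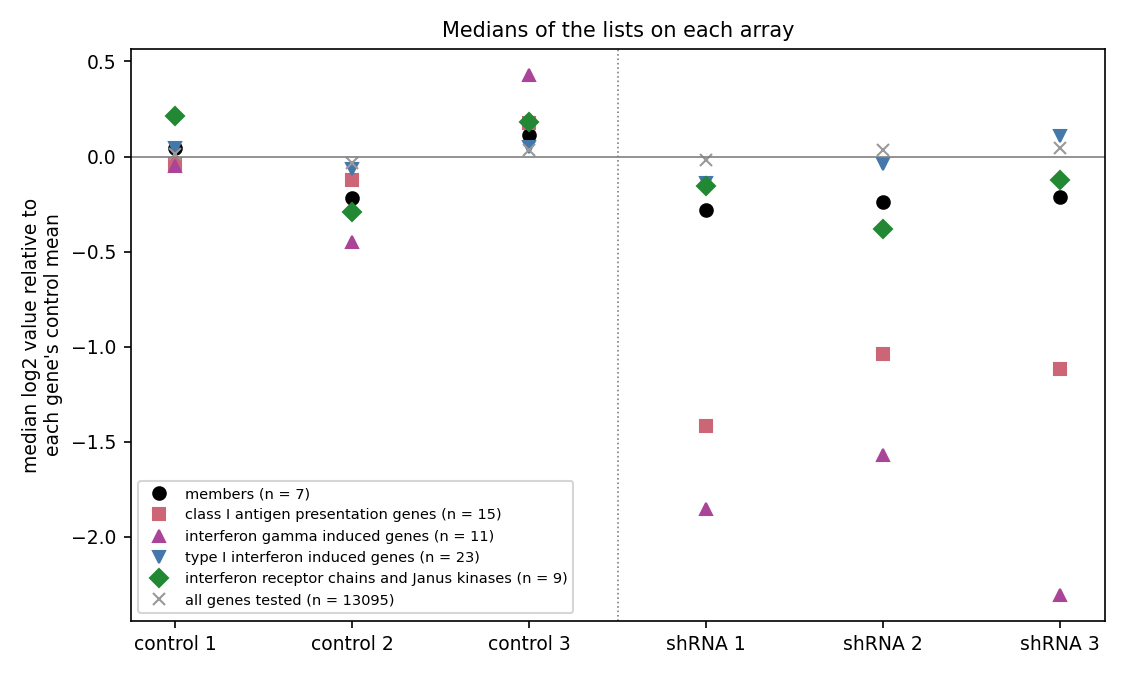
Median log2 value of each gene list on each array (y axis, relative to each gene's control mean) over the 3 control and 3 Pcl2 shRNA arrays (x axis). The median of the members lay between -0.28 and 0.11 on all 6 arrays, while that of the interferon gamma genes went from 0.43 on control replicate 3 to -2.30 on shRNA replicate 3.

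Mtf2, the target of the hairpin, had signals of 1951, 1513 and 1704 in the controls and 1048, 1167 and 870 in the shRNA arrays, which left 59.7% of the control level (log2 -0.74, adjusted p = 0.0157, limma). It did not pass when control replicate 1 (adjusted p = 0.0519, limma) or shRNA replicate 3 (adjusted p = 0.0574, limma) was left out. These values are of the brightest probe set of Mtf2, and its other kept probe sets gave log2 differences from -0.75 to 0.25. Over all genes 584 were higher and 1068 lower in the shRNA cells. The replicate block raised these counts to 1305 (9.97%) and 1808 (13.8%), or 23.8% of the genes tested. The 8 markers of undifferentiated embryonic stem cells summed to 20798 to 26732 in the controls and 33269 to 44335 in the shRNA arrays, 4 of the 8 rose, and all were above background. The 9 leukocyte markers summed to 402 to 495 and 549 to 682, and their defining gene Ptprc was at or below background on all arrays. Of the 5 tested, Laptm5 rose (log2 0.68, adjusted p = 0.0235, limma), though not without some single arrays. Cd68 read 112 ± 24.4 and 182 ± 27.4 (SD, n = 3), with all shRNA arrays above all controls. It did not pass (adjusted p = 0.0638, and 0.0135 with the replicate block, limma). Csf1r, Adgre1 and Lyz2 differed by 0.0094, 0.14 and -0.026 in log2 and did not pass. The 9 fibroblast markers summed to 383 to 978 and 285 to 598, with Dcn, Lum and Fap at or below background. In each group replicate 1 gave the highest sum. All 5 fibroblast markers tested had log2 differences below 0, with a median of -0.50, and 0 passed. With the replicate block Col1a1 and Col3a1 passed as lower (adjusted p = 0.0039 and 0.0305, limma). The 8 primitive endoderm markers summed to 325 to 436 and 228 to 273. Of these Dab2 fell, from 211 ± 41.5 to 56.7 ± 14.5 (SD, n = 3), while Gata4, Gata6 and Foxa2 did not pass, with log2 differences of 0.0026, 0.034 and -0.050. The 7 trophectoderm markers summed to 829 to 1344 and 875 to 1252, most of it Tfap2c, which read 566 ± 72.3 and 813 ± 169 (SD, n = 3). Of the 5 trophectoderm markers tested Cdx2 fell, by at least 3.67-fold, Krt7 fell by 1.72 in log2, and the median log2 difference was -1.03. Cdx2 was below background on all shRNA arrays and passed the filter through its control signals. The call of Krt7 was lost without control replicate 1 or 3 or shRNA replicate 1 or 2 (adjusted p up to 0.0847, limma). The part of these markers in the differences of Irf1 and the listed genes was not tested.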

How the data were processed

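Per the labels, the authors made the deposited values with GCOS 1.4. Each is an intensity, a linear MAS5 signal (named in the submitters' processing notes) for 1 probe set. Arrays had been scaled to 1 mean, 150.001 after trimming 2% at both ends, and were not scaled again. Medians were 28.5 to 33.9 and correlations 0.965 to 0.974 within and 0.943 to 0.962 between groups.

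Signals were taken as log2(signal + 7), so that changes of dim genes are understated. Probe sets with a mean at or above the 40th percentile (a signal of about 20.2) were kept, and the brightest stood for its gene. Symbols came from the platform annotation, brought up to date with RefSeq. Differences were fitted with limma 3.58.1 in R 4.3.3 (intensity trend) and pairs by exact permutation. The procedure was tested on simulated data. Alternatives were quantile normalization, median centring, other pseudocounts, filters and probe set rules, no trend, array weights, a floor at background, the replicate block, each array left out and, chosen after seeing the data, each probe set as its own feature.

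The members and lists were chosen with earlier results of these data known. The rule for named genes took the members, their Irf, Stat and receptor relatives, in each list up to 4 called genes ranked by p (in lists with none, the 2 brightest), the like genes and Mtf2. Jak2, Ciita, Rfxap, Ptpn6, Irf2bpl, Cgas, Myd88, Rela, Ifih1, Tlr3, Ikbke, Tlr7, Ifng, Icam1, Irgm2, Cxcl10, Pim1 and the markers were named after their values were seen. 1 of the 6 planned pairs is not reported here and was given a p of 1 in the adjustment.

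The labels number the arrays of each group 1 to 3 without tying a number to a culture or day. Deviations from the group mean correlated at 0.26 to 0.36 between same-numbered arrays and at -0.33 to -0.029 between others. Centring on the group means pulls the second range below 0 where the first is above 0, so the ranges are not independent. The numbers were taken as pairs for the replicate block, on the data alone. Arrays of the same number were also set side by side, without a test, for Ifnar1 and for the ratio of Irf9 to Stat2. The fits without the block and the exact permutations did not use the pairs.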

Additional observations from a re-analysis of the deposited data

How the results depend on the processing

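Irf1 was below the control under all 18 alternatives. Its adjusted p (limma) was above 0.05 in 5 of them, without the filter, without the trend (log2 -0.85 in both) and without each shRNA replicate, and in those the count of members that fell was 0. With 1 array left out its log2 difference was -0.99 to -0.58. The count of members that fell was 0 or 1 with 1 array left out. Of the differences that did not pass, Irf7 turned to 0.037 without control replicate 2 and Stat2 to 0.11 without control replicate 3 (ranges with 1 array left out, -0.11 to 0.037 and -0.34 to 0.11), and with a filter at the 60th percentile Irf7 was not tested. The ratio of Irf1 to Irf2, from which nothing is read, turned from 0.074 to -0.28 with a pseudocount of 21. With 1 array left out Mtf2 gave -0.84 to -0.63.

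The replicate block changed the call of no member. With it 1305 genes rose and 1808 fell, and in the lists 14 rose in place of 7. With array weights 885 genes rose, and 11 in the lists. With 1 array left out 261 to 577 genes rose, and 4 to 8 in the lists. With each probe set as its own feature, the probe set of Irf1 was the 1 probe set of a member that passed. Median centring moved the median of all genes by 0.060 in log2 and was the scaling that moved it most. Signals near the background of 20.3 limit what can be said of Irf2, Nlrc5 and Irf7.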
